A study of Caenorhabditis elegans with 24 samples.

Results

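The col genes are the collagens of Caenorhabditis elegans that are named only by number. Most are taken to be cuticle collagens, but col-99, described below, encodes a transmembrane collagen. The col genes were taken as the rows of the RNA-seq count table whose WormBase symbol is col- followed by a number and that held at least 20 reads in at least 1 of the 8 libraries, which kept 120 of the 156 col genes in the table, out of 46508 genes in all and 14667 genes tested. The 36 col genes left out had at most 18 reads in any library, and 7 of them had 0 reads in all 8. Just under the minimum stood col-148 (at most 18 reads), col-123 (14) and col-105 (10), and just above it stood col-75 (23), col-64 (24) and col-132 (27).

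Total RNA of whole L4 worms (the last larval stage), from which ribosomal RNA had been removed, was sequenced in 4 genotypes with 2 libraries each: N2, the wild-type strain, mutants of set-9 (allele rw5), mutants of set-26 (allele tm2467) and worms with both alleles (set-9 set-26), called the double mutant here. The study describes both alleles as deletions that bring in early stop codons, rw5 made by genome editing, and its methods give pooled, synchronized worms of mid to late L4. The double mutant strain was kept as heterozygotes over the balancer nT1, and the methods describe homozygotes of an early and of a later generation, while the labels of these libraries do not say which was sequenced. SET-9 and SET-26 are near-identical PHD and SET domain proteins, and the comparisons set RNA levels of genotypes that lack 1 or both beside N2 and each other. Nothing in the sources says that the 2 libraries of a genotype came from separate cultures, so p-values measure only the spread between these libraries, which may be technical. In the main tests this spread was estimated for each gene over all 4 genotypes together, so a p-value between 2 of them also rests on the others.

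The worm's cuticle is a layered extracellular matrix secreted by the epidermis (hypodermis) and is built mostly of small collagens cross-linked to each other. A new cuticle is made under the old one at every molt, and collagen genes are known to be switched on in turn within a molt, so that their RNA levels move quickly with age inside a larval stage. Some, such as col-19 and col-7, are known as adult cuticle collagens whose RNA first appears in late L4. Because whole worms were sequenced, fewer epidermal cells and less collagen RNA per cell cannot be told apart. The exact age of each pool within L4 is not given. Differences of genotype and of age between the pools therefore cannot be told apart in any comparison below.

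The defining feature of these proteins is a run of triplets, glycine followed by any 2 residues (Gly-X-Y), which lets 3 chains wind into a triple helix. The first 66 bases of the longest run are printed for 4 members, with the glycine codons of the repeat in capitals, since they show both the repeat and how far copies can resemble each other (build WBcel235, coding strand).
col-10: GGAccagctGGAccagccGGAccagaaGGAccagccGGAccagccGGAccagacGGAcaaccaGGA
col-144: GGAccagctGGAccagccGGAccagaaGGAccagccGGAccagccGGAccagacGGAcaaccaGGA
col-19: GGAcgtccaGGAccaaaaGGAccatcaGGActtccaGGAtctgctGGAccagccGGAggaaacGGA
col-124: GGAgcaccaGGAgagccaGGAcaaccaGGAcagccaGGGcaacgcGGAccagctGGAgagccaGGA
The 4 stretches lie at chrV:9164728-9164793, minus strand (col-10), chrV:9160067-9160132, minus strand (col-144), chrX:422215-422280, plus strand (col-19) and chrIV:10217149-10217214, plus strand (col-124). The col-10 and col-144 stretches differed at 0 of 66 bases, whereas col-19 and col-124, which followed each other closely in level, differed at 25 of 66. Over the 120 members the coding length had a median of 903 bases (702 to 2205). The longest uninterrupted Gly-X-Y run had a median of 21 triplets and was 20 to 24 triplets in 98 members, with col-17 left out because its annotated frame and the RefSeq model disagree. A pair of members stood apart in length, col-135, by its far longer run, and col-99, which encodes a transmembrane collagen, with 2205 coding bases.

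Near-identical copies bear on every count given here. In 43 of the 120 members the coding sequence shared at least one exact 50-base stretch with another member, and in 18 more than 50% of such stretches were shared. The predicted proteins of col-3 and col-117 were identical, those of col-92 and col-94 were 99.7% identical and those of col-12 and col-13 99.4%. The sources used here do not say how reads that fit several copies were divided, so values of these genes are uncertain one by one, and sums over the copies are given where it matters. Exons of 31 members overlapped those of another annotated gene, and without a stated strand such reads cannot be told apart.

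The members were spread over all 6 chromosomes, with 32 on IV, 27 on V, 20 on X, 15 on II, 14 on I and 12 on III, and 39 of them lay within 10 kb of another member, in 16 groups. Upstream sequence is printed for 8 members that carry the results below. Each is the 150 bases before the annotated gene start (WBcel235, strand of the gene), with matches to AGATAA (a motif bound by GATA factors, which include the epidermal regulators ELT-1 and ELT-3), AGGTCA (bound by nuclear receptors, which include the molting regulators NHR-23 and NHR-25) or TATAAA (the TATA box) in capitals on the strand of the gene, or as their reverse complements.
col-10 (chrV:9165308-9165457, minus strand): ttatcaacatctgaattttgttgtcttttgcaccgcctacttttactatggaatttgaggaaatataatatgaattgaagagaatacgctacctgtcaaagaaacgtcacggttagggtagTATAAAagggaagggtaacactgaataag
col-144 (chrV:9160643-9160792, minus strand): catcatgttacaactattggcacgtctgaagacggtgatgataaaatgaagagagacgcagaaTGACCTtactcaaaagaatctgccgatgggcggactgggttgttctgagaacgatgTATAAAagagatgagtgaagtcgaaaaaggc
col-41 (chrX:15176482-15176631, minus strand): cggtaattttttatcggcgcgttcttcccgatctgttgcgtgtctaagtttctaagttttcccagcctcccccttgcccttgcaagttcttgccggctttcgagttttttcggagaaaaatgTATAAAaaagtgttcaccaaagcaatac
col-19 (chrX:421557-421706, plus strand): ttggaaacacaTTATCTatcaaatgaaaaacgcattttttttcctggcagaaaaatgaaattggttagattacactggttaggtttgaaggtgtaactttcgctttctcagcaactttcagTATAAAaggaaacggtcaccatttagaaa
col-124 (chrIV:10216301-10216450, plus strand): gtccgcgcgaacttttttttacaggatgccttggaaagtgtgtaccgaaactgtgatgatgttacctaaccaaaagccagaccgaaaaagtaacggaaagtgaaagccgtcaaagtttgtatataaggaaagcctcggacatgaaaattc
col-71 (chrII:3502571-3502720, minus strand): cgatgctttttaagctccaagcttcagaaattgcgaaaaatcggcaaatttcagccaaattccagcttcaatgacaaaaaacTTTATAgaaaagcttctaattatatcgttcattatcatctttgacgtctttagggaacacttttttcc
col-34 (chrIV:4244611-4244760, minus strand): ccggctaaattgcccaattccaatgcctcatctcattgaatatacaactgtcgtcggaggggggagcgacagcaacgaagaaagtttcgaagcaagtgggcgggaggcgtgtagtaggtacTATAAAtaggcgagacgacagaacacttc
col-74 (chrII:5830224-5830373, plus strand): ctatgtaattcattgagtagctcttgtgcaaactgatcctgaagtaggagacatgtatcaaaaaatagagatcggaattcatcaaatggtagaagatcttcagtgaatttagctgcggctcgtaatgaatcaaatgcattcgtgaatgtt
In the window from 250 bases before to 50 after the start, AGATAA or its reverse was present in 30 of 120 members (25%) against 21.2% of 19973 protein-coding genes, AGGTCA in 17 (14.2%) against 8.27%, and TATAAA in 76 (63.3%) against 37.9%. TATAAA was chosen after the sequences had been seen, it can overlap the other motifs, and a match is a description of letters, not of a bound site. By the pattern groups described below, TATAAA was present in 23 of 26 genes of the col-10 group, 14 of 26 of the col-19 group, 9 of 19 of the col-71 group and 7 of 16 of the col-34 group. It was also present in 23 of the 33 genes outside the groups. In the col-10 group 21 of the 26 genes share coding stretches with other members, so they may not be separate cases.

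Reads on genes ran from 16363189 to 26187811 per library, and the col genes took 2.96% to 4.61% of them. Levels are given as CPM (TMM-normalised read counts on the counts-per-million scale), on which 3 reads correspond to 0.115 to 0.183 CPM before scaling. The set-9 gene itself read 90.4 and 91.4 CPM in N2, 46.0 and 39.9 in set-9, 115 and 107 in set-26, with 30.6 and 33.0 in the double mutant, so that both genotypes labelled as lacking it were below the others, although reads of such close paralogs may be split between them, and the set-26 gene was not analysed here. The 5 epidermal markers that were matched of 6 listed were above 0 throughout, and their summed level lay between 946 and 1344 CPM in all 8 libraries. Most of that sum was vab-10 alone, at 691 to 1062 CPM, so it says little about the other markers. Of these, che-14 was lower in set-26 than in N2 (−1.14 ± 0.20 (SE), adjusted p = 0.0348 by edgeR's quasi-likelihood test), as log2 difference. In set-9 the same test gave −1.24 ± 0.20 (SE), adjusted p = 0.0557, so the fall was about as large there but not called. elt-3 was lower in the double mutant than in N2, and the part of both genes in the collagen values was not tested.

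The levels of single col genes in N2 covered a wide range. Scaled to coding length, the 120 members had a median of 138 CPM per kilobase, from 0.0549 for col-121 to 3571 for col-125; 12 members exceeded 1000 CPM per kilobase and 10 lay under 1. After col-125 came col-10 (3020.2 CPM per kilobase), col-160 (2306), col-149 (2234), col-73 (1453), col-93 (1336), col-166 (1140.4), col-122 (1117), col-71 (1116) and col-159 (1107). The last 4 cannot be ranked among each other, since the 2 N2 libraries of col-122 alone read 1491 and 519.8 CPM. Counted as CPM, the 10 highest members together held 45.9% of all N2 col reads.

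The 2 libraries of a genotype differed more on col genes than on other genes. The median absolute log2 ratio between replicates was 0.68 over the 120 members against 0.24 over all tested genes in N2, 0.60 against 0.22 in set-9 and 0.49 against 0.21 in set-26, but 0.22 against 0.20 in the double mutant. More than 2-fold apart were 34 members in N2, 30 in set-9 and 33 in set-26, with 8 in the double mutant. As the spread was pooled over genotypes, the closer double mutant libraries also entered the p-values of comparisons without them. Replicate 1 was the higher library for 83 to 92 of the 120 members in each genotype, which says only that the libraries so numbered differed.

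Members were grouped by how similar their profiles were over the 8 libraries (average linkage on 1 minus the Pearson correlation of log2(CPM + 0.5), groups cut at a distance of 0.2, those of 10 or more kept). The groups were made from the values themselves and are used for description only. That genes of a group move alike, in the shares and counts below, follows in part from the grouping. They were 26 genes with the profile of col-10, 26 with that of col-19, 19 with that of col-71 and 16 with that of col-34, and 33 genes fell outside them.

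**Figure D1:**
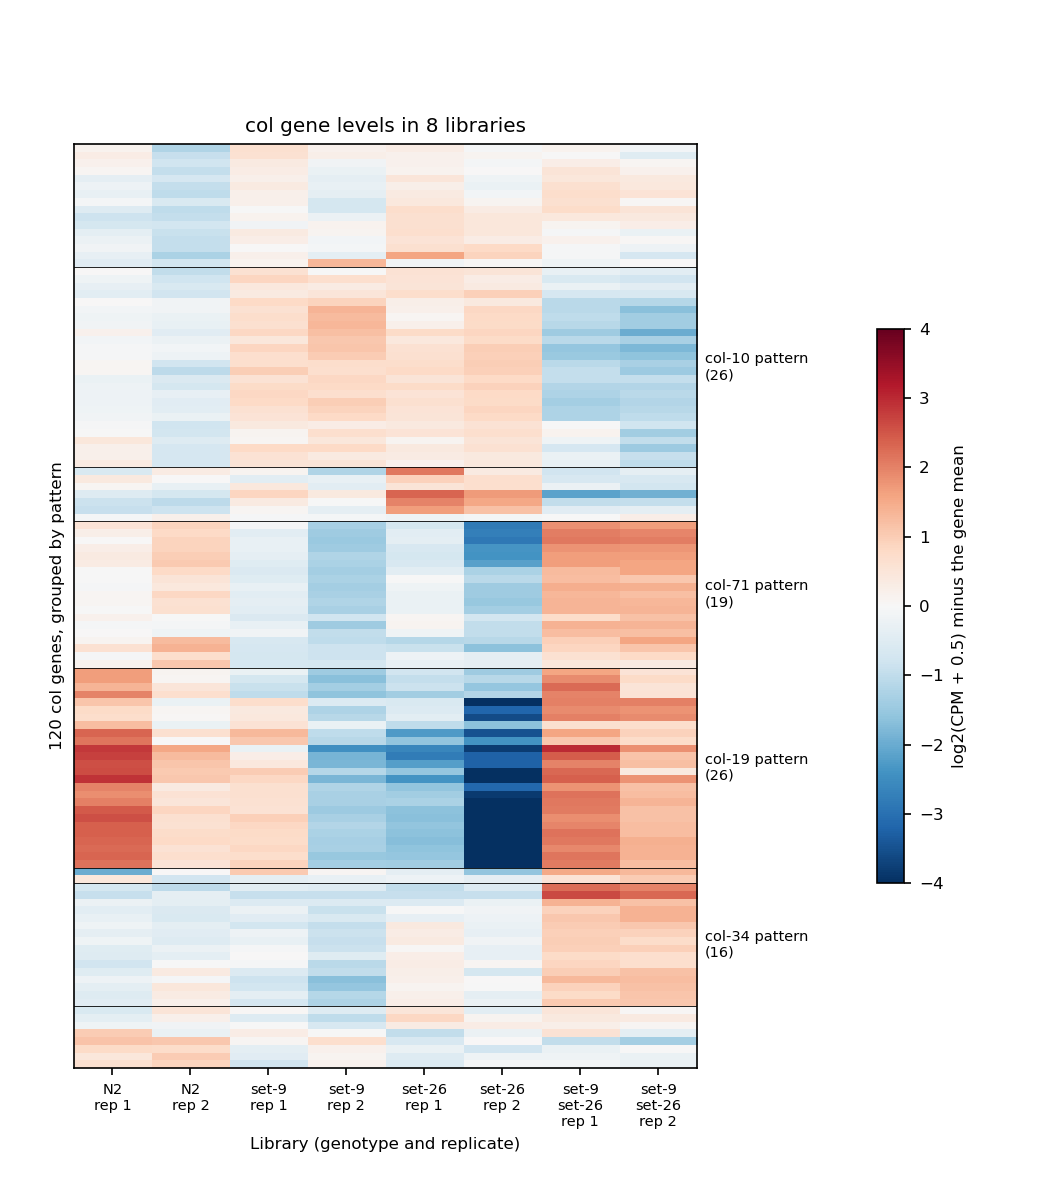
Level of each of the 120 col genes (rows) in the 8 libraries (columns) as log2(CPM + 0.5) minus the gene's mean over the libraries, with red above and blue below the mean and colours saturating at 4 on either side. Most of the 26 genes of the col-10 group are red in both single mutants and blue in the double mutant, and the rows of the col-19 group hold the darkest colours, mostly in set-26 replicate 2, and differ between replicates.

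The make-up of the collagen reads moved with genotype. Of the col reads, the col-10 group held 46.7% and 45.2% in N2, 67.7% and 78.2% in set-9, 65.997% and 75.9% in set-26, with 28.4% and 28.3% in the double mutant. The col-71 group held 13.1% and 26.0% in N2, 7.93% and 4.49% in set-9, 8.85% and 3.70% in set-26, with 33.4% and 38.4% in the double mutant. The col-19 group held 21.9% and 9.47% in N2, 6.72% and 1.75% in set-9, 1.58% and 0.274% in set-26, with 19.03% and 13.4% in the double mutant. Both single mutants therefore lay above N2 for the first group and below it for the col-71 and col-19 groups, without overlap, and the double mutant lay on the other side of N2 for the col-10 and col-71 groups.

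**Figure D2:**
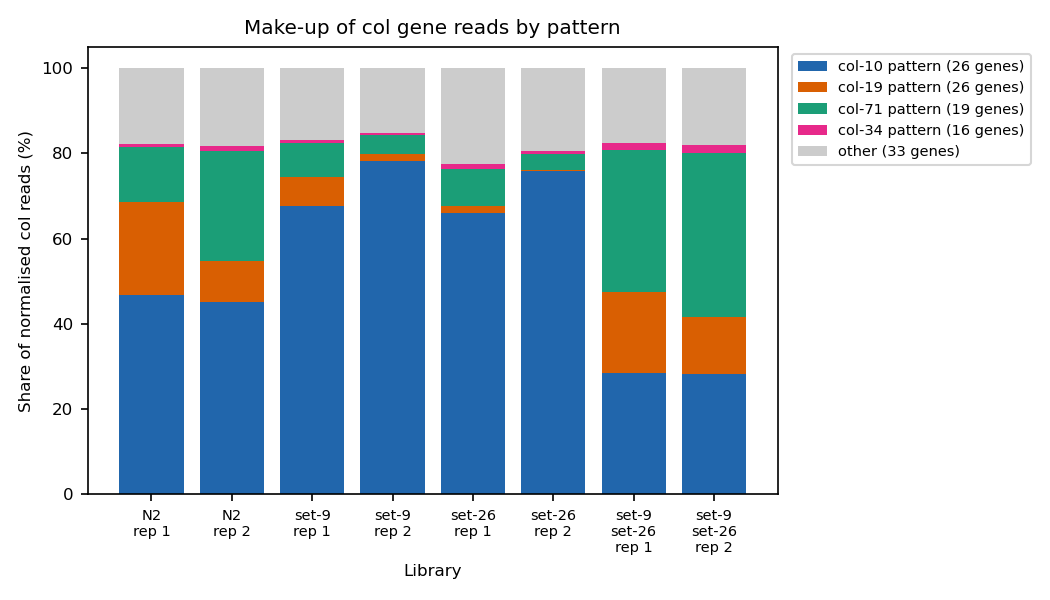
Share of the normalised reads of all 120 col genes (in %) that fell on each pattern group, for each of the 8 libraries. The col-10 group fills 65.997% to 78.2% of the bar in the single mutants, 45.2% and 46.7% in N2 and 28.3% and 28.4% in the double mutant.

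Loss of set-9 was accompanied by higher RNA of a block of collagens, some of them among the most abundant. By edgeR's quasi-likelihood test, 10 of the 120 members were higher in set-9 than in N2 (8.33%, against 0.198% of all tested genes) and 0 were lower (against 0.266%). The 10 were col-10, col-144, col-3, col-166, col-117, col-168, col-180, col-170, col-167 and col-125, by falling fold change, and all 10 belong to the col-10 group and share 50-base stretches with other members. Members moved in both directions, since the median log2 fold change was −0.43 over the members and 0.00 over all tested genes. At an unadjusted p under 0.05, 28 members were lower (against 8.53% of all tested genes), and DESeq2's Wald test called 10 lower (against 2.43%).

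Among the 10, col-10, one of several collagens studied for their part in lifespan, was read at 2904 and 2423 CPM in N2, 5801 and 6587 in set-9, 5169 and 5638 in set-26, with 1287 and 1474 in the double mutant. Both set-9 and both set-26 libraries stood well above N2, and the double mutant stood below all the others. The set-9 to N2 log2 difference was 1.22 ± 0.13 (SE), adjusted p = 0.0201. Its near-copy and neighbour col-144, also a lifespan collagen, had 229 and 160.4 CPM in N2, 447 and 453 in set-9, 450.2 and 497 in set-26, with 117.02 and 115 in the double mutant. The order of the genotypes was that of col-10, and the summed level of the pair, which does not depend on how reads were divided between them, was 3133 and 2584 CPM in N2, 6248 and 7039.9 in set-9, 5619.7 and 6135 in set-26, with 1404 and 1589 in the double mutant. Both also share stretches with col-145, so the sum can still depend on how reads were divided with that gene.

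The same order was seen in a row of copies on the X chromosome. col-166 (chrX:6280016-6280921) lies some distance from col-167, col-168, col-169 and col-170, which follow each other between positions 6323488 and 6332611 and share 52.3% to 88.8% of their 50-base stretches with each other, col-166 and col-180. Summed over the 5 genes the level was 3073 and 2857 CPM in N2, 5424 and 6376 in set-9, 4896 and 6039 in set-26, with 1263 and 1262 in the double mutant. For col-166 alone it was 1051 and 1009 CPM in N2, 1971 and 2368 in set-9, 1680.4 and 2149 in set-26, with 373 and 315 in the double mutant, and the set-9 to N2 log2 difference was 1.08 ± 0.15 (SE), adjusted p = 0.0409. On chromosome IV, col-3 and col-117, identical in protein, summed to 224 and 184 CPM in N2, 399 and 476 in set-9, 380.3 and 462 in set-26, with 127.1 and 130.6 in the double mutant. Again N2, the single mutant and the double mutant libraries did not overlap. As col-3 and col-117 also share stretches with col-125 and other members, their sum can still depend on how reads were divided.

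The most abundant member, col-125, moved least among the 10, with 3511 and 2895 CPM in N2, 5812 and 5479 in set-9, 6232 and 5579.6 in set-26, with 3662 and 3301 in the double mutant and a set-9 to N2 log2 difference of 0.82 ± 0.12 (SE), adjusted p = 0.041. Its exons overlap those of best-7. Without N2 replicate 1, 7 of the 10 calls were kept. None was kept when only the 4 set-9 and N2 libraries were fitted, nor without N2 replicate 2, without either set-9 library or without either double mutant library, and 3 were kept without either set-26 library. The direction held in all of these fits for the named genes.

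In set-26, collagens of the col-10 group were higher as well, and a few outside that group rose further. By the same test 15 of 120 members (12.5%) were higher than in N2 (against 0.975% of all tested genes) and 6 (5%) were lower (against 1.42%). The median log2 fold change was 0.18 over the members and 0.01 over all tested genes. At an unadjusted p under 0.05, 34 members were higher and 40 lower (against 16.3% of all tested genes in either direction). DESeq2's Wald test also called more members in each direction, with counts given at the end. The col-19 group had a median log2 fold change of −4.08, while 3 of its 26 genes were among the 6 called lower. Of the 15, 10 belong to the col-10 group. The other 5 were col-54, col-41, col-90, col-107 and col-154.

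The largest increases were those of col-54, col-41 and col-90, which lie on chromosomes I, X and III and share no 50-base stretch with another member. col-41 read 177 and 156 CPM in N2, 461 and 338 in set-9, 1284 and 838 in set-26, with 57.7 and 67.1 in the double mutant. The set-26 libraries were far above all others, the set-9 libraries lay between them and N2, and the double mutant was lowest. The set-26 to N2 log2 difference was 2.67 ± 0.24 (SE), adjusted p = 0.00551. For col-54 the values were 7.88 and 6.98 CPM in N2, 19.3 and 14.5 in set-9, 59.7 and 43.8 in set-26, with 7.15 and 7.34 in the double mutant, a log2 difference of 2.80 ± 0.21 (SE), adjusted p = 0.00429. Here the double mutant sat beside N2 and not below it. For col-90, whose exons overlap those of let-754, they were 64.5 and 68 CPM in N2, 129 and 93.9 in set-9, 393 and 275 in set-26, with 89.4 and 94.9 in the double mutant, a log2 difference of 2.33 ± 0.21 (SE), adjusted p = 0.00551 in set-26, while the double mutant overlapped set-9. These 3 calls against N2 held in all 13 alternative fits.

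The same test called these 3 genes between the single mutants. In set-26 against set-9, 3 of 120 members were higher (2.50%, against 0.443% of all tested genes) and 0 were lower (against 0.252%), with 19 lower at an unadjusted p under 0.05 (against 6.55%) and 3 lower by DESeq2's Wald test (against 1.3%). The log2 differences were 1.61 ± 0.20 (SE), adjusted p = 0.0255 for col-54, 1.58 ± 0.20 (SE), adjusted p = 0.0255 for col-90 and 1.41 ± 0.23 (SE), adjusted p = 0.049 for col-41. None of them was kept without either set-9, either set-26 or either double mutant library, and 2 and 1 were kept without N2 replicates 1 and 2.

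The members called lower in set-26 were of another kind. col-143, col-8 and col-179, of the col-19 group, fell most, col-110 and col-79, of the col-71 group, less, and col-149 least. col-143 read 97.2 and 39.6 CPM in N2, 11.1 and 2.02 in set-9, 1.75 and 0.487 in set-26, with 109 and 48.7 in the double mutant. All 4 single mutant libraries were below N2 and the double mutant, and its log2 difference in set-26 was −5.91 ± 0.97 (SE), adjusted p = 0.0291. col-8 read 91.6 and 32.6 CPM in N2, 16.1 and 3.32 in set-9, 1.5 and 0.974 in set-26, with 74 and 29.8 in the double mutant, a log2 difference of −5.64 ± 0.96 (SE), adjusted p = 0.0312. Of 13 alternative fits, 6 kept the call for col-143 and 6 that for col-8. Exons of col-143, col-8, col-179, col-110 and col-149 overlap those of other coding genes.

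The level of col-149, the fourth most abundant member per kilobase in N2, was 2032 and 1949 CPM in N2, 982 and 1472 in set-9, 595 and 931 in set-26, with 473 and 361 in the double mutant. All mutant libraries were below N2, and the double mutant was lowest. The log2 difference to N2 was −1.38 ± 0.26 (SE), adjusted p = 0.0415 in set-26 and −2.25 ± 0.27 (SE), adjusted p = 0.00538 in the double mutant, while in set-9 it was −0.70 with an adjusted p of 0.297. The counts of set-26 against N2 rested on single libraries: those higher were 4 without set-26 replicate 2, 5 without N2 replicate 2, 6 without set-26 replicate 1, 9 without either double mutant library, 16 without either set-9 library and 18 without N2 replicate 1. Those lower were 7 without either set-9 library, 3 without N2 replicate 1 and 0 without N2 replicate 2 and without either set-26 or either double mutant library.

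**Figure D3:**
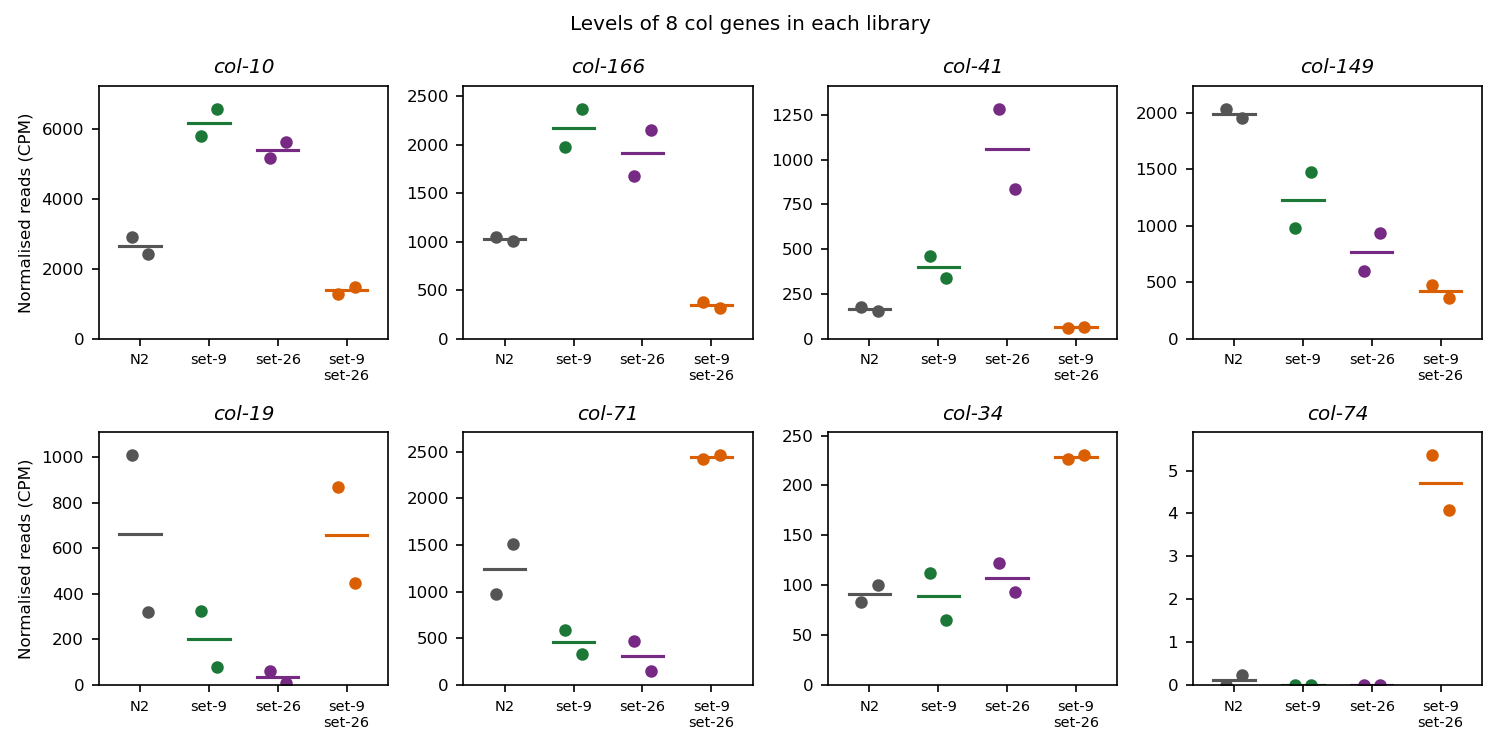
Normalised reads (CPM, linear axes from 0) of 8 col genes in each library, with 1 point per library and a line at the mean of the 2. col-10 and col-166 are higher in both single mutants and lowest in the double mutant, col-41 peaks in set-26 at 838 and 1284 CPM, col-149 is highest in N2, and col-71, col-34 and col-74 are highest in the double mutant.

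col-19 and the genes that followed it differed most between libraries. col-19, the best studied adult cuticle collagen, read 1008 and 319.7 CPM in N2, 327 and 78.2 in set-9, 60.2 and 8.55 in set-26, with 868 and 449 in the double mutant. The set-26 libraries were lowest and N2 and the double mutant highest, but the 2 libraries within a genotype differed about as much as some genotypes did, and N2 replicate 2 and set-9 replicate 1 read nearly alike. Its set-26 to N2 log2 difference was −4.27 with an adjusted p of 0.0995. col-124 on chromosome IV ran with it at 969 and 333 CPM in N2, 317 and 76.1 in set-9, 58.6 and 8.92 in set-26, with 821 and 516 in the double mutant.

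col-7, the other adult collagen fixed by name, read 39.4 and 12.1 CPM in N2, 19.3 and 3.45 in set-9, 1.15 and 0.216 in set-26, with 23.2 and 14.6 in the double mutant and shares 87.3% of its 50-base stretches with col-62. col-120, one of the lifespan collagens, read 80.7 and 50.5 CPM in N2, 65.4 and 22.5 in set-9, 36.7 and 3.62 in set-26, with 199 and 185 in the double mutant, so that here the double mutant stood above N2. col-122, the most abundant of the group in N2, read 1491 and 519.8 CPM in N2, 571 and 152 in set-9, 153.9 and 22.6 in set-26, with 1623 and 953 in the double mutant. In all of these set-26 replicate 2 was the lowest library, and none of them was called between set-26 and N2 in the main test. Some of the alternative fits did call col-19, col-7 and col-122 lower in set-26, but not col-120.

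Marker lists of other tissues were read beside the collagens. The summed level of the 6 germ line markers lay between 807 and 1065 CPM in all 8 libraries, and 0 of them were called in either single mutant against N2 by edgeR's quasi-likelihood test or DESeq2's Wald test, with 1 and 0 at an unadjusted p under 0.05. In the double mutant htp-3 alone of the 6 was called, lower than in each other genotype. The summed level of the 6 oocyte markers was 886 and 542 CPM in N2, 739 and 489 in set-9, 596 and 344 in set-26, with 699 and 812 in the double mutant, and that of the 6 sperm markers 94.03 and 46.2, 44.4 and 20.97, 71.6 and 50.9, and 144.4 and 152.9, with spe-38 at 0 in 3 libraries and no other listed marker of these at 0. Of the 5 sperm markers tested, msp-3, msp-31, spe-11 and gsp-3 were called higher in the double mutant than in set-9 (4 of 5, against 14.2% of all tested genes). msp-3 was also higher there than in N2 and in set-26. Of the oocyte markers only oma-1 was called, higher in the double mutant than in set-26. In N2 and both single mutants replicate 1 was the higher library for both sums, as it was for col-19. The 6 intestine markers summed to 2890.1 and 3242 CPM in N2, 3498 and 3648 in set-9, 2599 and 3178 in set-26, with 1787 and 2068 in the double mutant. There 3 of the 6 (act-5, ifb-2 and pept-1) were lower than in each other genotype. Of all tested genes, 5.91%, 11.7% and 5.24% were lower there than in N2, set-9 and set-26. Of the 5 body wall muscle markers, 4 were lower in the double mutant than in set-9 (against 11.7% of all tested genes). The part of these tissues in the collagen values was not tested.

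In the double mutant another set of collagens was high, most of them at low levels. Against N2, 15 of 120 members were higher (12.5%, against 4.42% of all tested genes) and 14 lower (11.7%, against 5.91%), with a median log2 fold change of 0.35 over the members and 0.01 over all tested genes. Of the 15, 11 were of the col-34 group, and of the 14, 12 were of the col-10 group. Of the 15, col-74, col-165 and col-121 passed the 20-read minimum through the double mutant alone, so their calls follow in part from how members were chosen. The 15 were col-74, col-165, col-121, col-33, col-174, col-89, col-65, col-58, col-34, col-113, col-107, col-162, col-115, col-173 and col-130.

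col-74 (chrII:5830374-5832022) was nearly absent outside the double mutant, with 0 and 0.227 CPM in N2, 0 and 0 in set-9, 0 and 0 in set-26, with 5.35 and 4.08 in the double mutant. It had 181 reads over the double mutant libraries and 0 over those of either single mutant, which makes it at least 26.0-fold higher than in set-9 and at least 30.2-fold higher than in set-26, with the floor at 3 reads per library. Its exons overlap those of gtap-1. Outside the 20-read limit, col-148 had the same kind of profile, with 18 and 9 reads in the double mutant and 1 read over the other 6 libraries.

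col-165 on the X chromosome read 0.276 and 0.113 CPM in N2, 0.444 and 0.391 in set-9, 0.15 and 0.379 in set-26, with 5.51 and 4.54 in the double mutant. Again both double mutant libraries stood well above the other 6, which held 2 to 8 reads each. col-121 and col-132 reached 20 reads only in the double mutant, with 50 reads each there. For col-121 the ratio to N2, which held 3 reads, was 18.6 (95% counting interval 6.02 to 93.4, exact binomial), and col-132 was at least 7.19-fold higher than in set-9, which held 0 reads. Together with col-64 and col-165, these genes and col-74 are the 5 members that reached 20 reads in the double mutant alone, so they had to be high there to be included at all.

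Of the more abundant genes that were higher in the double mutant than in N2, col-34 read 83.3 and 99.8 CPM in N2, 113 and 65 in set-9, 122 and 92.9 in set-26, with 226 and 230.01 in the double mutant. The double mutant libraries lay above the other 6, and the log2 difference to N2 was 1.32 ± 0.25 (SE), adjusted p = 0.0225. col-107 differed from it in being high in set-26 as well, with 537 and 494 CPM in N2, 1039 and 806 in set-9, 1474 and 1289 in set-26, with 1267 and 1246 in the double mutant and log2 differences to N2 of 1.42 ± 0.14 (SE), adjusted p = 0.00747 in set-26 and 1.29 ± 0.14 (SE), adjusted p = 0.00453 in the double mutant.

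The members lower in the double mutant than in N2 were col-149, col-147, col-166, col-169, col-41, col-98, col-170, col-42, col-176, col-10, col-167, col-117, col-168 and col-144. For col-166 the log2 difference was −1.58 ± 0.16 (SE), adjusted p = 0.00364, for col-41 −1.42 ± 0.23 (SE), adjusted p = 0.0134 and for col-10 −0.95 ± 0.13 (SE), adjusted p = 0.00754. col-147, whose exons overlap those of T06E4.5, read 370.1 and 241 CPM in N2, 586 and 752 in set-9, 557 and 593 in set-26, with 121 and 82.4 in the double mutant. Both double mutant libraries were below both N2 libraries, and the single mutants above them, and its log2 difference to N2 was −1.59 ± 0.25 (SE), adjusted p = 0.0129.

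The count of members higher than in N2 was 1 without either double mutant library, 4 without N2 replicate 2 and 9 without N2 replicate 1, and the count lower was 5 and 3 without double mutant replicates 1 and 2. Fitted on the 4 libraries alone, the counts were 28 higher and 16 lower. Of 13 alternative fits, 9 kept the call against N2 for col-34 and 12 for col-149 and col-10.

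More members differed between the double mutant and the single mutants. Against set-9, 41 members were higher (34.2%, against 14.2% of all tested genes) and 25 lower (20.8%, against 11.7%), and the median log2 fold change was 0.95 over the members and 0.00 over all tested genes. The 41 included 19 of the 19 genes of the col-71 group and 15 of the 16 of the col-34 group, and the 25 included 22 of the col-10 group. As the groups were made from these same libraries, such counts follow in part from the grouping. Of the 41, col-74, col-121, col-132 and col-165 passed the read minimum through the double mutant alone. Their calls therefore follow in part from how members were chosen. Against set-26, 34 were higher (28.3%, against 5.12%) and 25 lower (20.8%, against 5.24%), with medians of 0.76 and 0.01. These 34 included 16 genes of the col-71 group and 15 of the col-19 group. They also held col-74 and col-165, to which the same limit applies. Since all comparisons use the same 8 libraries, the counts are not independent of each other.

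col-71 (chrII:3500077-3502570) stands for its group with 979 and 1506 CPM in N2, 592 and 331 in set-9, 466 and 147 in set-26, with 2418 and 2459 in the double mutant. Both double mutant libraries were highest and nearly equal, N2 came next, and all single mutant libraries were lowest. The log2 difference was 2.40 ± 0.53 (SE), adjusted p = 0.0156 against set-9 and 2.99 ± 0.54 (SE), adjusted p = 0.0191 against set-26, while against N2 it was 0.97 with an adjusted p of 0.247. col-73, the fifth most abundant member per kilobase in N2, read 1012 and 1473 CPM in N2, 726 and 422 in set-9, 1017 and 488 in set-26, with 2412 and 2144 in the double mutant, and col-63 305 and 562 CPM in N2, 248 and 107 in set-9, 229.8 and 41.5 in set-26, with 1308 and 1242 in the double mutant. For both the double mutant was highest, but set-26 replicate 1 read as high as an N2 library for col-73, and the set-26 libraries of col-63 were far apart.

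In the other direction, col-41 had the largest fall of the double mutant against set-26, a log2 difference of −4.09 ± 0.25 (SE), adjusted p = 0.000679, and for col-10 against set-9 it was −2.17 ± 0.13 (SE), adjusted p = 0.000401. col-160, next after col-10 per kilobase in N2, read 2825 and 1561 CPM in N2, 4275 and 4305 in set-9, 3219.7 and 3801 in set-26, with 1554 and 904 in the double mutant and had a log2 difference of −1.80 ± 0.32 (SE), adjusted p = 0.0079 between the double mutant and set-9. It overlaps col-159, which read 1455 and 623 CPM in N2, 1827 and 1395 in set-9, 1352 and 1289 in set-26, with 1183 and 845 in the double mutant and was not called in any of the 6 comparisons. Of the col-19 group, col-19 itself was higher in the double mutant than in set-26 by 4.26 ± 1.095 (SE), adjusted p = 0.0496, with both double mutant libraries above both of set-26. Against set-9 its log2 difference was 1.70 with an adjusted p of 0.245.

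The members lower in the double mutant than in set-9 stayed between 19 and 27 with any library left out, but those higher numbered 11 without set-9 replicate 2 and 15 and 13 without double mutant replicates 1 and 2. Against set-26, those higher numbered 1 without set-26 replicate 2 and 1 and 0 without double mutant replicates 1 and 2, and those lower 15 without set-26 replicate 2 and 13 without either double mutant library.

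**Figure D4:**
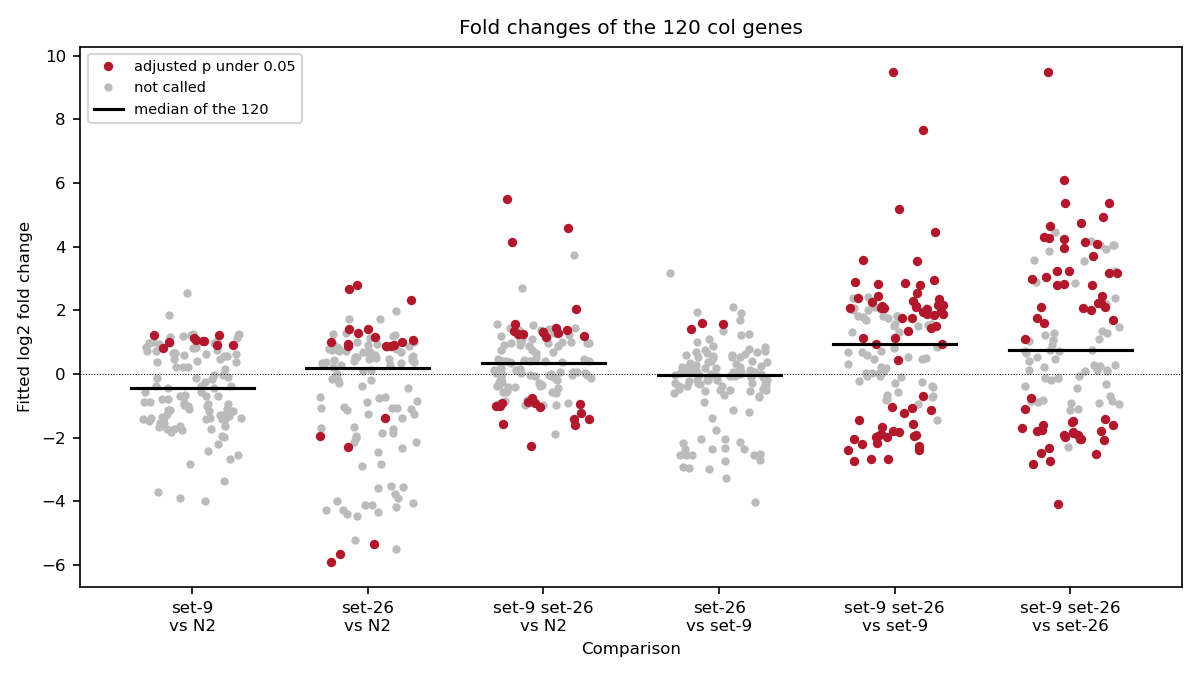
Fitted log2 fold change of each of the 120 col genes in the 6 comparisons, with genes under a 5% false discovery rate over all tested genes in red, the others in grey and a black line at the median of the 120. The medians lie between −0.43 and 0.18 among N2 and the single mutants and at 0.95 and 0.76 for the double mutant against set-9 and set-26. Fold changes above 7 belong to col-74 and col-132, which had 0 reads in the genotype compared, and are not bounds.

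The double mutant was also set against what both single mutant log2 changes add up to, a contrast chosen after the data had been seen. By edgeR's quasi-likelihood test 45 members lay above that sum (37.5%, against 8.27% of all tested genes) and 29 below it (24.2%, against 5.6%). The 45 were 19 genes of the col-19 group, 19 of the col-71 group and 7 of the col-34 group, and 22 of the 29 were of the col-10 group. Of the 45, col-74 and col-165 passed the read minimum through the double mutant alone, so they had to be high there. For 16 members the loss of 1 gene was called in opposite directions with and without the other, with the contrast called too, which was so for 0.798% of all tested genes. The count above the sum was 6 and 7 without double mutant replicates 1 and 2, 13 without set-9 replicate 2, 13 without set-26 replicate 2 and 28 without N2 replicate 1.

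Some textbook members were not called in any of the 6 comparisons. col-99, whose product is anchored in the membrane and is known from neurons, had the smallest spread of all 120, with 18.4 and 22.5 CPM in N2, 19 and 18.4 in set-9, 17.2 and 18.6 in set-26, with 19.3 and 23.3 in the double mutant, and its highest library was 1.35 times its lowest. The near-identical pair col-12 and col-13 summed to 172 and 83.4 CPM in N2, 218 and 144.4 in set-9, 199.9 and 187 in set-26, with 204 and 165 in the double mutant, and neither gene was called in any of the 6 comparisons.

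Neighbouring members did not always move together. In 8 of the 16 groups of members within 10 kb, all members had the same one of the 4 patterns, among them the near-copies col-3 and col-117, col-92 to col-94, and col-167 to col-170, where shared reads would also give like values. On chromosome II, col-79 (chrII:10703613-10704572) and col-39 (chrII:10704916-10706019) follow each other on the plus strand with opposite profiles. col-79 read 71.7 and 162 CPM in N2, 42.4 and 32.6 in set-9, 29.7 and 30.6 in set-26, with 128 and 199 in the double mutant. col-39 read 361 and 201 CPM in N2, 541 and 549.6 in set-9, 552 and 672 in set-26, with 159 and 138 in the double mutant. Both single mutants were below N2 for col-79 and above it for col-39.

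The cuticle collagens that carry names from body shape mutants behaved in part like the col-71 group. Of the 20 on the list, 0 were higher and 2 lower in set-9 than in N2, 0 and 6 in set-26, with 2 and 3 in the double mutant, with list medians of −1.22, −1.01 and 0.22 against 0.00, 0.01 and 0.01 over all tested genes. Of all tested genes, 0.198% and 0.266% were called in set-9, 0.975% and 1.42% in set-26, with 4.42% and 5.91% in the double mutant. At an unadjusted p under 0.05 there were 18 of the 20 in set-9, with 14 in set-26 (against 13.3% and 16.3% of all tested genes). DESeq2's Wald test called 15 and 14 (against 3.42% and 5.71%). Against set-9, 14 were higher in the double mutant and 0 lower (against 14.2% and 11.7% of all tested genes), and against set-26 10 and 0 (against 5.12% and 5.24%). bli-1, which encodes a collagen of the struts of the adult cuticle, read 1383 and 2306 CPM in N2, 521 and 501 in set-9, 532 and 373 in set-26, with 1810.5 and 1811 in the double mutant, and its log2 difference to N2 was −1.85 ± 0.25 (SE), adjusted p = 0.0386 in set-9 and −2.03 ± 0.25 (SE), adjusted p = 0.0145 in set-26. bli-2, a second strut collagen, had the same order of genotypes, with log2 differences of −1.96 ± 0.26 (SE), adjusted p = 0.0386 in set-9 and −2.16 ± 0.27 (SE), adjusted p = 0.0145 in set-26.

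A pair of these collagens rose in the double mutant from very low levels, as col-74 did. dpy-17 read 1.89 and 1.59 CPM in N2, 1.94 and 1.3 in set-9, 1 and 1.35 in set-26, with 11.5 and 12.7 in the double mutant, a log2 difference to N2 of 2.79 ± 0.28 (SE), adjusted p = 0.00413, and dpy-14, known from the embryo, read 0.0394 and 0.113 CPM in N2, 0.278 and 0.261 in set-9, 0 and 0.108 in set-26, with 7.37 and 5.71 in the double mutant. dpy-2, dpy-9 and dpy-10, which belong to the set needed for the furrows of the cuticle, were lower in the double mutant than in N2, with log2 differences of −0.86 ± 0.20 (SE), adjusted p = 0.0363 for dpy-2, −1.26 ± 0.23 (SE), adjusted p = 0.0205 for dpy-9 and −0.996 ± 0.23 (SE), adjusted p = 0.0358 for dpy-10. In set-26, dpy-2 (−1.26 ± 0.20 (SE), adjusted p = 0.0274), dpy-10 (−1.25 ± 0.23 (SE), adjusted p = 0.0385) and dpy-8 (−1.27 ± 0.25 (SE), adjusted p = 0.0472) were lower than in N2 as well.

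Of the 21 listed enzymes and secretory factors that modify, fold, export or process collagen, the counts depended on the test. In set-26 against N2, edgeR's quasi-likelihood test called 1 higher and 1 lower (against 0.975% and 1.42% of all tested genes). DESeq2's Wald test called 7 (against 5.71%), and 11 had an unadjusted p under 0.05 (against 16.3%). There mlt-7, a peroxidase of cuticle cross-linking, rose, with a log2 difference of 0.96 ± 0.19 (SE), adjusted p = 0.0457, and dpy-11, a thioredoxin-like protein, fell, with one of −0.81 ± 0.15 (SE), adjusted p = 0.038. In the double mutant against N2 only pdi-3, a disulfide isomerase, was called, at −0.78 ± 0.15 (SE), adjusted p = 0.0205, while 5.91% of all tested genes were called lower. dpy-18, the prolyl 4-hydroxylase subunit, was higher in the double mutant than in set-9 and set-26, by 0.52 ± 0.14 (SE), adjusted p = 0.0335 and 0.65 ± 0.14 (SE), adjusted p = 0.0341. In set-9 against N2 0 of the 21 were called by edgeR's quasi-likelihood test, 5 had an unadjusted p under 0.05 (against 13.3% of all tested genes) and DESeq2's Wald test called 1 (against 3.42%). Higher and lower in the double mutant were 2 and 3 of the 21 against set-9 (against 14.2% and 11.7% of all tested genes). Against set-26 they were 2 and 1 (against 5.12% and 5.24%).

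The collagens of basement membranes are not part of the cuticle. emb-9 and let-2, the type IV collagen chains, read 925 and 1127 CPM in N2, 938 and 1083 in set-9, 941 and 1004 in set-26, with 985 and 1117 in the double mutant for emb-9, and 2024 and 2174 CPM in N2, 2021 and 2048 in set-9, 1748 and 1950.0 in set-26, with 2159.7 and 2293 in the double mutant for let-2. Of the 3 on the list, cle-1 included, edgeR's quasi-likelihood test and DESeq2's Wald test called 0 in any of the 6 comparisons, 2 had an unadjusted p under 0.05 in the double mutant against set-26, and the fitted log2 differences lay between −0.18 and 0.50.

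Among 11 regulators of molting and the epidermis, nhr-25, a nuclear receptor gene required for molting, was higher in the single mutants. It read 21.9 and 23.8 CPM in N2, 50.6 and 50.7 in set-9, 66.5 and 53.2 in set-26, with 28.1 and 26 in the double mutant, and rose by 1.15 ± 0.14 (SE), adjusted p = 0.0275 in set-9 and 1.39 ± 0.14 (SE), adjusted p = 0.00762 in set-26. Of the 11, 3 were lower in the double mutant than in N2 (against 5.91% of all tested genes). They were nhr-23, the receptor gene that starts each molt, at −0.82 ± 0.15 (SE), adjusted p = 0.0211, elt-3, a GATA factor gene of the epidermis, at −0.84 ± 0.13 (SE), adjusted p = 0.012, and myrf-1, at −0.73 ± 0.13 (SE), adjusted p = 0.0162. Of the 7 tested genes of the larval to adult switch, lin-29, the transcription factor gene that is known to turn on col-19, read 132 and 139 CPM in N2, 111 and 115 in set-9, 115 and 97.4 in set-26, with 88.4 and 73.9 in the double mutant. Its log2 difference between the double mutant and N2 was −0.74 ± 0.13 (SE), adjusted p = 0.0164, and it was called in neither single mutant against N2. Against set-9, 2 of the 11 regulators were higher in the double mutant and 4 lower, and 0 and 3 of the 7 switch genes (against 14.2% and 11.7% of all tested genes). Against set-26 the counts were 1 and 3, and 0 and 2 (against 5.12% and 5.24%).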

How the data were processed

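For 8 RNA-seq libraries the authors deposited a table of estimated counts for each gene, which need not be whole and are not scaled for depth. Per the methods, reads were trimmed (FASTX, cutadapt), freed of tRNA and rRNA (Bowtie), aligned to WS250 with TopHat2 and counted with Cufflinks. Versions are not given in the sources used here.

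Counts were rounded. The 93 landmark entries (0.252% of reads) were left out. All 14667 genes with at least 20 reads in 1 library entered edgeR's quasi-likelihood test (edgeR 4.0.16, R 4.3.3) on all 8 libraries, with TMM scaling and Benjamini-Hochberg adjustment over all of them, at a 5% false discovery rate. The SE is the log2 fold change divided by the square root of F. Total gene reads ran from 16363189 to 26187811, and intervals cover counting error only. Tests were checked on simulated counts.

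Named genes were, in each comparison, the 10 largest and 10 smallest log2 fold changes among called members whose higher group had 20 reads in each library and that moved in 1 direction in both same-numbered pairs, the 10 highest in N2 per kilobase, textbook cases and the most similar pairs. List genes are given by their counts, with values for only some of those called. col-148, emb-9 and let-2 were named after their values were seen. Members and lists were chosen with earlier results of these data known. Alternatives were DESeq2 1.42.0 size factors and Wald test, no filter, the replicate number as a block, the 4 libraries compared alone, and each library left out. Positions, motifs and sequences are from RefSeq's WBcel235 genome and Ensembl gene models, read in Python 3.11.15 with Biopython 1.88. The ChIP-seq samples were not used here.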

Additional observations from a re-analysis of the deposited data

Results flagged for a closer look

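For 16 col genes the change seen with loss of 1 of the 2 genes was called in opposite directions with and without the other gene, and the difference itself was called (edgeR's quasi-likelihood test of the double mutant against the sum of both single mutant log2 changes, a contrast chosen after the data had been seen). The same held for 0.798% of the 14667 tested genes. As genes with opposite calls were picked first, a called contrast follows almost from the choice and is no separate support. The double mutant lay below the sum for col-54 at −4.02 ± 0.30 (SE), col-117 at −2.95 ± 0.23 (SE), col-3 at −2.74 ± 0.21 (SE), col-125 at −1.58 ± 0.17 (SE), col-144 at −3.24 ± 0.23 (SE), col-10 at −3.19 ± 0.18 (SE) and col-166 at −3.55 ± 0.22 (SE). It also lay below it for col-167 at −2.70 ± 0.20 (SE), col-168 at −2.86 ± 0.18 (SE), col-169 at −3.31 ± 0.22 (SE), col-170 at −2.34 ± 0.15 (SE), col-180 at −2.49 ± 0.21 (SE) and col-41 at −5.35 ± 0.34 (SE). It lay above the sum for col-79 at 4.08 ± 0.54 (SE), col-110 at 4.06 ± 0.45 (SE) and col-143 at 9.48 ± 1.27 (SE). Adjusted p ranged from 0.000351 to 0.00741. Of these, the near-copies col-10 and col-144, col-3 and col-117, and col-166 to col-170 share 50-base stretches, so their values are not separate observations.
No group had the 4 libraries that a test for outlying libraries needs.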

How the results depend on the processing

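None of the 146 calls of named members changed direction under any alternative, but many were lost. Still called were 113 when only the 4 libraries compared were fitted, 60 and 52 without double mutant replicates 1 and 2, 87 without set-26 replicate 2, and 104 to 129 without any other library. Counts of called members depended more on the settings. With DESeq2's Wald test, 25 members were higher and 10 lower in set-9 than in N2, 29 and 32 in set-26, and between the single mutants 6 were higher in set-26 and 3 lower. Without a filter on low counts the counts were 25 and 26, 31 and 43, and 11 and 20 for the same comparisons, 32 and 22 for the double mutant against N2, and 56 higher against set-26. Fitted on the 4 libraries compared, 0 were higher in set-9 than in N2, while set-26 against N2 gave 4 higher and 0 lower, set-26 against set-9 gave 0 higher, and the double mutant gave 28 higher against N2 and 52 against set-26.

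A fit that took the replicate number as a block called more. In it, 17 members were higher and 8 lower in set-9 than in N2, 24 and 27 in set-26, 6 and 17 in set-26 against set-9, while the double mutant had 62 higher against set-9 and 53 against set-26, and the 146 named calls were kept. The numbers were not taken as pairs in the main tests, since same-numbered deviations correlated at 0.0464 to 0.205 over all genes, though at 0.192 to 0.803 over the col genes. Only the choice of named genes compared same-numbered libraries.

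Leaving out 1 library at a time gave, higher and lower, 0 to 10 and 0 to 3 members for set-9 against N2, 4 to 18 and 0 to 7 for set-26 against N2, 1 to 17 and 3 to 16 for the double mutant against N2, and 0 to 2 and 0 to 0 for set-26 against set-9. For the double mutant the ranges were 11 to 42 and 19 to 27 against set-9, 0 to 44 and 13 to 30 against set-26, and 6 to 47 and 20 to 34 against the sum. The library left alone in its genotype is then assumed to vary like the others, and with 2 libraries a genotype the precision of every count is limited.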
